A study of Mus musculus with 2 samples.

Results

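The 9 genes described here, Maf, Irf4, Irf8, Spi1, Cebpb, Zeb2, Runx3, Klf4 and Rbpj, encode transcription factors that are used to define macrophages and related myeloid cells, and are 9 of the 27998 genes counted. They were listed by name and not by a measured value. All 9 were measured in both single-cell libraries.

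Single-cell RNA was measured in macrophages of the mouse small intestine from 2 groups with 1 library each. The wild-type (WT) mice were male C57BL/6J from Janvier, and the Ccr2-/- mice (KO) were JAX strain 004999, a germline knockout, bred in-house, with no sex given. In both groups 3 to 4 intestines were pooled, and live cells were sorted as CD45+, CD11b+, MHCII+ and CD64+ and negative for a lineage mix of CD3, TCRb, B220, SiglecF, Ly6C and Ly6G. Age was not given, and genotype, supplier and library cannot be told apart. With 1 pooled library per genotype no difference between genotypes could be tested, so the values below are levels and ratios whose 95% intervals cover counting error only. Cell barcodes of the WT library carry 1 of 2 suffixes, and these 2 sets of cells are called lanes here. The ratio between lanes is given as a yardstick. Whether the lanes hold cells of the same mice or of separate preparations cannot be told from the suffix.

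CCR2 is the chemokine receptor that Ly6C-high monocytes need to leave the bone marrow, and in the adult intestine much of the macrophage pool is renewed from such monocytes. TIM-4, encoded by Timd4, marks long-lived gut macrophages that are renewed slowly from blood. PU.1, encoded by Spi1, opens myeloid enhancers and acts with C/EBP, IRF, MAF and RUNX factors on macrophage genes. Zeb2 takes part in keeping the tissue identity of macrophages, Klf4 in monocyte differentiation, and Rbpj is the DNA-binding partner of the Notch receptors.

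After filtering, 3016 WT cells (2109 and 907 by lane) and 2612 KO cells remained, with a median of 6129 and 2439 UMIs (unique molecular identifiers, each counting 1 captured RNA molecule). All 10 macrophage markers were at 10 CPM or more (counts per 1000000 UMIs of the group) in both libraries, and all 7 T cell or innate lymphoid markers were below 10 CPM in both. Ccr2 itself was at 331 CPM in WT and 6.88 CPM in KO. The summed level of 12 immediate-early genes, which respond within minutes to stimuli and to tissue handling, was 7261 CPM in WT (7298 and 7174 by lane) and 26762 CPM in KO. Plasma cell markers summed to 1660 CPM in WT and 1802 CPM in KO, of which Jchain alone was at 1600 and 1756 CPM. Fibroblast markers summed to 25.7 CPM in WT and 230 CPM in KO, and endothelial markers to 1.40 and 46.9 CPM. The part of depth, of these other cells and of immediate-early expression in the genotype ratios below was not tested beyond the values given beside them. Barcode sequences were shared by 5 cells between the WT lanes and by 6 between WT and KO.

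Of the 9 genes, 4 were at least 1.5-fold higher in KO than in WT (Maf, Cebpb, Runx3 and Klf4) and 0 were at least 1.5-fold lower. Over all 7401 genes with a mean of at least 10 CPM, 23.6% were at least 1.5-fold higher in KO and 12.5% at least 1.5-fold lower. The median log2 ratio of KO to WT, with a pseudocount of 1 CPM, was 0.58 for the 9 genes and 0.18 for all these genes. Between the WT lanes, 0.171% of 7014 genes were at least 1.5-fold higher in lane 2 and 6.67% at least 1.5-fold lower, among the latter 1 of the 9 genes, Rbpj. All genes and the 9 genes had a median lane 2 to lane 1 log2 ratio of -0.062 and -0.30.

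**Figure D1:**
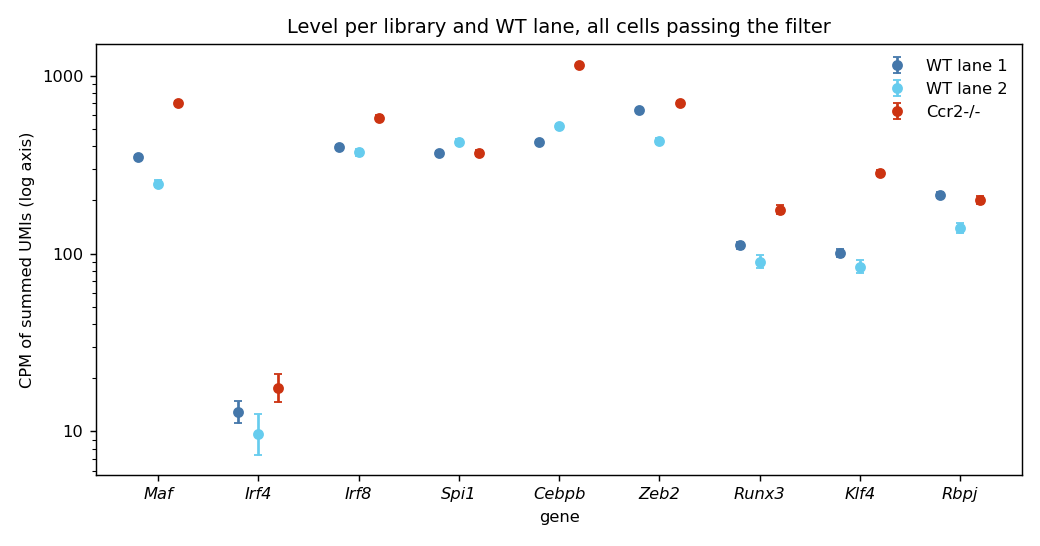
Level of each of the 9 genes in CPM of summed UMIs (vertical log axis) in WT lane 1, WT lane 2 and KO, with exact Poisson 95% intervals for counting error. The KO points of Cebpb (1143 CPM), Maf (702 CPM) and Klf4 (284 CPM) stand clear of both lanes, while those of Spi1 (369 CPM) and Rbpj (199 CPM) lie within or at the edge of the range of the lanes.

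Spi1 encodes PU.1, the ETS factor required for the myeloid lineage (GRCm38 chr2:91082390-91115756, plus strand, ENSMUSG00000002111). Its level was 369 CPM in WT lane 1, 424 CPM in WT lane 2 and 369 CPM in KO. The KO level equalled that of lane 1 and was below that of lane 2, and the log2 ratio to both lanes together was -0.061 (95% interval -0.13 to 0.0020).

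Cebpb encodes C/EBPbeta, a leucine-zipper factor of monocyte and macrophage maturation that is also induced by inflammatory signals (chr2:167688915-167690418, plus strand, ENSMUSG00000056501). It was at 422 and 518 CPM in the WT lanes and 1143 CPM in KO, where the 2 WT values lay well below the KO value. The log2 ratio was 1.34 (1.30 to 1.39), and 1.44 and 1.14 against lane 1 and lane 2 alone. Klf4 encodes a zinc-finger factor that promotes monocyte differentiation (chr4:55527143-55532466, minus strand, ENSMUSG00000003032). It was at 101 and 84.5 CPM in the WT lanes and 284 CPM in KO. Its log2 ratio of 1.56 (1.48 to 1.66) was the highest of the 9 genes.

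The promoters of Cebpb and Klf4, the 2 genes with the highest KO to WT ratio, are shown from 250 bases before the annotated start up to it, 5′ to 3′ on the gene's strand (RefSeq, GRCm38.p6). Capitals mark TGACG or its reverse complement CGTCA, the core of the cyclic AMP response element, through which CREB and ATF proteins bind many immediate-early promoters. Cebpb, chr2:167688665-167688914 on the plus strand, holds 3 matches, 180 to 7 bases before the start. Klf4, chr4:55532476-55532725 on the minus strand, holds 1 match, 232 bases before the start.
Cebpb: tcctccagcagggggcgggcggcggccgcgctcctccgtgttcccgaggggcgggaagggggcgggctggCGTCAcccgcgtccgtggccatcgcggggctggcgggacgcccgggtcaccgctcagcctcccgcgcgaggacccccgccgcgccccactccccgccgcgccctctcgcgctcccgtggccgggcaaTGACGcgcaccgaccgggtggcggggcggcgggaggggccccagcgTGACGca
Klf4: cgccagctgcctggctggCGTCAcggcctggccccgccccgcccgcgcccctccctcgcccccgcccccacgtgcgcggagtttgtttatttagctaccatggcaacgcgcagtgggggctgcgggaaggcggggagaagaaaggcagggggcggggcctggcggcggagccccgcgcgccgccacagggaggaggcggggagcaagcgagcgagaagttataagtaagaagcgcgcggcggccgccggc
Of the other 5 genes with entries, TGACG was found in 2 of the 4 entries of Zeb2, 67 and 93 bases before the start, and in none of Irf4, Irf8, Runx3 and Rbpj. It was present on either strand in 17.8% of all 32851 promoter entries. The motif was chosen after the values were seen. Of the other 7 motifs searched on both strands, none was found in the entries of these 2 genes. They were the AP-1 site TGANTCA (in 6.75% of all entries), the C/EBP site TTGCNNCAA (1.74%), the ETS site GAGGAA (23.3%), the interferon-stimulated response element (2.98%), the STAT site TTCNNNGAA (7.02%), the RBPJ site TGGGAA (21.6%) and the CArG box (1.47%). A match describes the letters in this window and not a bound site. Entries were found for 7 of the 9 genes, with Maf and Spi1 the exceptions.

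Irf8 encodes an interferon regulatory factor that directs monocyte and type 1 dendritic cell development (chr8:120736358-120756694, plus strand, ENSMUSG00000041515). It was at 397 and 370 CPM in the WT lanes and 580 CPM in KO, which was above both lanes. The log2 ratio was 0.58 (0.52 to 0.63), a fold of 1.49 that lay just under the 1.5 used for the count. Irf4, its relative with roles in type 2 dendritic cells, plasma cells and alternatively activated macrophages (chr13:30749226-30766976, plus strand, ENSMUSG00000021356), was at 12.9 and 9.66 CPM in the WT lanes and 17.6 CPM in KO. These levels rest on 247 UMIs in WT and 128 UMIs in KO, and the log2 ratio was 0.52 (0.24 to 0.87).

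Of the 2 promoter entries of Irf8, 1 is shown because it holds a STAT-type motif, the class of site through which interferon gamma acts on this gene. The other entry of Irf8 held none, and 2 entries of Zeb2 held 1 match each. Capitals mark the 2 matches of TTCNNNGAA, 171 and 153 bases before the start (chr8:120736108-120736357, plus strand, RefSeq, GRCm38.p6).
Irf8: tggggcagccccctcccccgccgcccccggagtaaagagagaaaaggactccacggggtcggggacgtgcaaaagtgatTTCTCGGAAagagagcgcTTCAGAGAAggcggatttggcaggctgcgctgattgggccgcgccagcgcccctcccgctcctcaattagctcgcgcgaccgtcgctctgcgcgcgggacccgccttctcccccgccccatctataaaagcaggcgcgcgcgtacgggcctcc

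Maf encodes c-MAF, a leucine-zipper factor that acts on Il10 and restrains the self-renewal of macrophages (chr8:115682942-115707794, minus strand, ENSMUSG00000055435). It was at 348 and 247 CPM in the WT lanes and 702 CPM in KO. KO was higher than either lane, but the lanes differed too, with a lane 2 to lane 1 log2 ratio of -0.49. The KO to WT log2 ratio was 1.14 (1.09 to 1.19), and 1.01 and 1.501 against lane 1 and lane 2.

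Zeb2 encodes a zinc-finger repressor (chr2:44983632-45117395, minus strand, ENSMUSG00000026872) and was at 638 and 428 CPM in the WT lanes and 700 CPM in KO. The log2 ratio of KO to WT was 0.28 (0.23 to 0.33), smaller in size than the lane 2 to lane 1 ratio of -0.57. Rbpj (chr5:53466152-53657362, plus strand, ENSMUSG00000039191) was at 214 and 140 CPM in the WT lanes and 199 CPM in KO, between the lanes. Its log2 ratio was 0.054 (-0.033 to 0.14), against -0.61 between the lanes. For these 2 genes the WT lanes were thus further apart than KO was from both lanes together. The same held for Spi1, with 0.20 between the lanes. Against lane 2 alone, however, the KO ratio was 0.71 for Zeb2, larger in size than that between the lanes, and 0.51 for Rbpj.

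Runx3 encodes a Runt-domain factor that acts downstream of TGF-beta in several leukocytes (chr4:135120652-135177990, plus strand, ENSMUSG00000070691). It was at 111 and 90.1 CPM in the WT lanes and 177 CPM in KO, above both. The log2 ratio was 0.75 (0.65 to 0.85), and -0.30 between the lanes. Cytotoxic and innate lymphocytes also express Runx3, and the summed T cell and innate lymphoid markers were at 11.2 CPM in WT and 22.3 CPM in KO.

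The order by KO to WT ratio was Klf4, Cebpb, Maf, Runx3, Irf8, Irf4, Zeb2, Rbpj and Spi1. Intervals of neighbours were apart from Klf4 to Irf8, overlapped between Irf8 and Irf4 and between Irf4 and Zeb2, were apart between Zeb2 and Rbpj, and overlapped between Rbpj and Spi1.

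**Figure D2:**
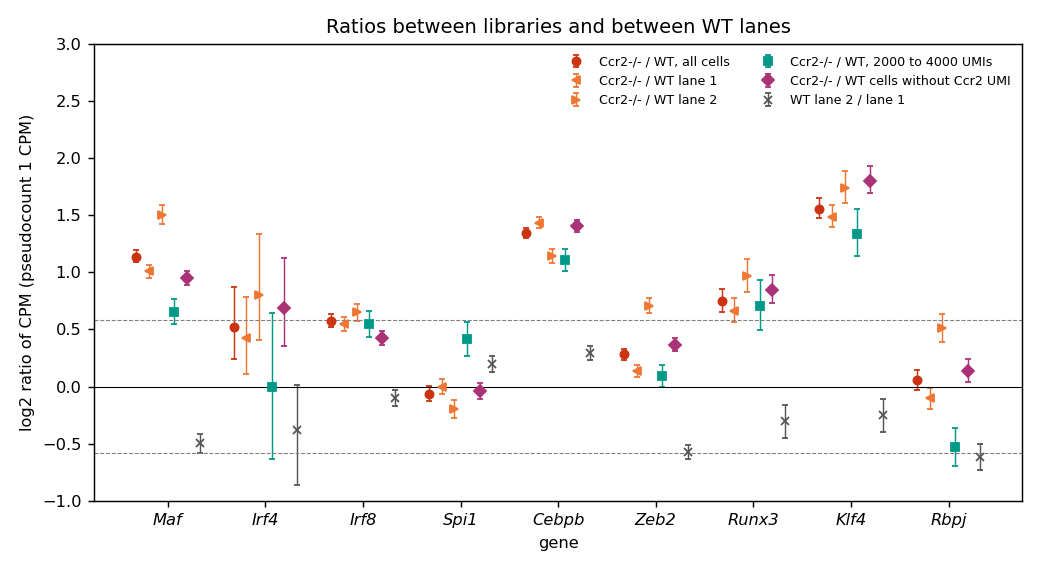
Log2 ratio of CPM (vertical axis) for each of the 9 genes (horizontal axis), for KO against WT over all cells, each lane, cells of 2000 to 4000 UMIs and WT cells without a Ccr2 UMI, and for WT lane 2 against lane 1, with counting intervals; dashed lines mark 1.5-fold. The KO to WT points of Klf4, Cebpb, Maf and Runx3 all lie above the upper line, while those of Spi1 and Rbpj lie on both sides of 0.

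Because KO cells were shallower, the ratios were taken again in cells with 2000 to 4000 UMIs, 1051 in KO and 713 in WT. There Klf4 had a log2 ratio of 1.34, Cebpb of 1.11, Runx3 of 0.71 and Maf of 0.66. The same 4 genes were at least 1.5-fold higher, against 15.1% of 7452 genes, and Irf8 was at 0.55. Spi1 was at 0.41 in these cells against -0.061 over all, and Rbpj at -0.53 against 0.054, so their direction differed between the 2 sets of cells. The window holds shallow cells of WT (median 6129 UMIs over all) but cells around the KO median of 2439. In WT, Maf was at 467 CPM there against 319 over all, Spi1 at 275 against 385 and Rbpj at 280 against 192. In KO they were at 737 against 702, 366 against 369 and 194 against 199 CPM. Whether these WT cells differ in kind was not tested. Irf4 was at -0.0020 and Zeb2 at 0.093. After every cell was thinned to 1000 UMIs, the ratios were 1.40 for Klf4, 1.39 for Cebpb, 1.08 for Maf, 0.81 for Runx3 and 0.58 for Irf8.

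Leaving out WT cells with a Ccr2 UMI (43.9% of WT cells, against 1.15% of KO cells with one), the log2 ratio was 1.80 for Klf4, 1.40 for Cebpb, 0.95 for Maf, 0.85 for Runx3 and 0.42 for Irf8. Leaving out cells with at least 3 markers of another cell type (74 in WT and 72 in KO) gave 1.52, 1.36, 1.15, 0.77 and 0.60. Without those cells 6 of the 9 genes were at least 1.5-fold higher, the 4 above together with Irf4 at 0.64 and Irf8 at 0.60, against 23.7% of 7316 genes. Irf8 crossed 1.5-fold with a level close to its value of 0.58 over all cells. Against WT lane 2 alone 7 of the 9 genes were at least 1.5-fold higher, against 33.8% of 7324 genes. Timd4 was detected in 14.8% of WT cells and 31.2% of KO cells. Among cells with a Timd4 UMI the log2 ratio of KO to WT was 2.01 for Klf4, 1.63 for Cebpb and 0.80 for Maf, and among cells without one 1.497, 1.26 and 1.23.

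All 12 immediate-early genes were at least 1.5-fold higher in KO, from Atf3 with a log2 ratio of 1.38 to Egr1 with 3.03. Cells of both libraries were therefore pooled and divided into 4 bands of equal size by their immediate-early CPM, an alternative added after the data were seen. From the lowest to the highest band there were 90, 163, 989 and 1370 KO cells and 1317, 1244, 418 and 37 WT cells.

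Cebpb was higher with each band in both libraries, at 249.2, 681, 1098 and 1342 CPM in KO and 244, 515, 965 and 1493 CPM in WT. Within bands its log2 ratio of KO to WT was 0.030, 0.40, 0.19 and -0.15. Klf4 was at 40.4, 116, 230 and 386 CPM in KO and 45.7, 105, 217 and 794 CPM in WT, with ratios of -0.17, 0.13, 0.084 and -1.04. Neither gene was 1.5-fold higher in KO in any band, and the highest band holds only 37 WT cells. The bands match the libraries only in part: the summed immediate-early level was 3104, 9876, 20309 and 37978 CPM in KO and 3449, 8313, 17010 and 31525 CPM in WT. Depth differed too, with a median of 2321, 2658, 3075 and 2058.5 UMIs in KO and 6120, 6773.5, 4726 and 2716 UMIs in WT.

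Maf did not follow the immediate-early level in WT, at 347, 295, 293 and 384 CPM from the lowest to the highest band. In KO it was at 350, 462, 613 and 861 CPM. Its ratio was 0.013 in the lowest band and 0.64, 1.06 and 1.16 in the others, so that Maf was at least 1.5-fold higher in KO in 3 of 4 bands. The lowest band of KO differed in other ways too: 20% of its cells carried markers of another cell type, and its summed macrophage markers were at 8235 CPM against 17011 CPM in WT. In the second band these were 11.7% against 2.01% of WT cells, and 9916 against 14206 CPM. Their part in the Maf ratios was not tested. Irf8 was at -0.73, 0.24, 0.40 and 0.12, and Runx3 at 0.26, 0.73, 0.42 and -0.0027. Whether cells with high immediate-early RNA differ by genotype, handling or depth cannot be told apart in 2 libraries.

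**Figure D3:**
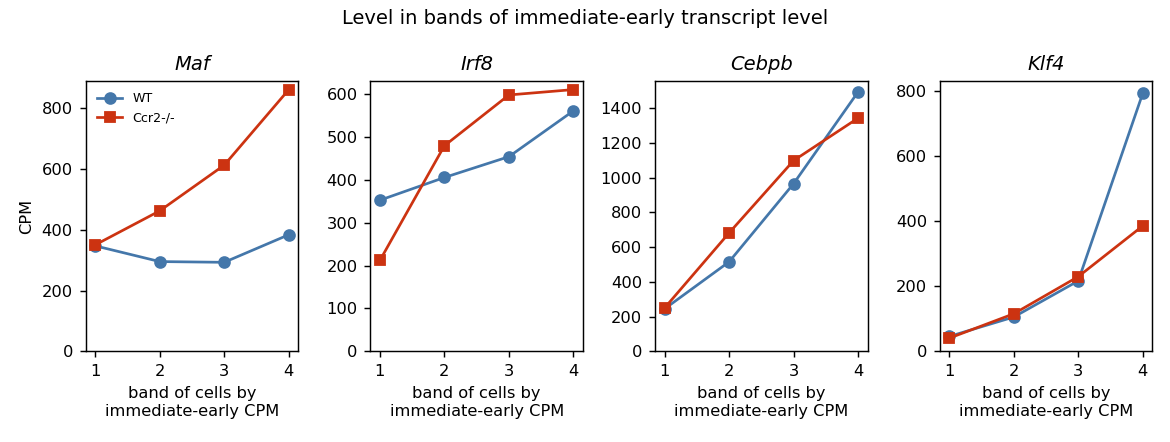
CPM of Maf, Irf8, Cebpb and Klf4 (vertical axes, from 0) in 4 bands of cells by summed immediate-early CPM (horizontal axis, 1 the lowest), with a line each for WT and KO and no error drawn. The lines of Cebpb lie close together from 244 to 1493 CPM, while for Maf KO reaches 861 CPM and WT lies between 293 and 384 CPM.

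Related genes were compared in the same way, by lists. The counts below stand beside 23.6% of all 7401 genes at least 1.5-fold higher in KO and 12.5% at least 1.5-fold lower. Of the small MAF genes, Mafg had a KO to WT log2 ratio of 0.85 and the stress-induced Maff of 1.77, both at least 1.5-fold higher in KO. Of 6 KLF relatives, 5 were at least 1.5-fold higher, led by Klf2 with 2.06, and Klf13 was at 0.42. Of 7 ETS relatives with a mean of at least 10 CPM, 5 were at least 1.5-fold higher, led by Ets2 with 2.57. Spi1, of the same family, was at -0.061.

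Of 6 IRF relatives only Irf1, the interferon-induced activator, was at least 1.5-fold higher, at 0.94, and Irf3 was the lowest at -0.25. Of 4 C/EBP relatives, 2 were at least 1.5-fold higher, with Ddit3, a stress-response factor, at 1.90 and Cebpz at -0.40. Zeb1, the closest relative of Zeb2, was below the minimum mean of 10 CPM, with 40 UMIs in WT and 45 in KO. Of the 3 other genes of the ZEB and RUNX group, Runx2 was higher at 0.88, and Cbfb, the partner of all RUNX factors, was at 0.47. In the Notch pathway 3 of 9 genes were at least 1.5-fold higher, from Notch2, a receptor of this pathway, at 1.12 down to the corepressor gene Spen at 0.20. None of the genes with a mean of at least 10 CPM in these KLF, ETS, IRF, C/EBP, ZEB and RUNX, and Notch lists was at least 1.5-fold lower in KO.

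Of 15 other macrophage factors, 8 were at least 1.5-fold higher, led by Nr4a1, itself an immediate-early gene, at 1.86, and the lowest was Nr1h3, the LXR alpha gene, at -0.49. A further list held 8 genes, targets of PU.1 or MAF factors and genes abundant in macrophages, with Ctss among the latter. Of these 8 genes, 2 were at least 1.5-fold higher and 3 lower, against 23.6% and 12.5% of all 7401 genes. The higher ones were Il10, a target of c-MAF, at 1.98 and Csf1r, a target of PU.1, at 0.82. The lower ones were the complement genes C1qb at -1.33 and C1qa at -0.76, and Ctss, a lysosomal protease gene, at -0.63. C1qc was at 0.19, so genes of 1 complex differed in direction.

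Within WT, cells were divided by their Ccr2 UMIs into classes of 0, 1, 2 to 3 and 4 or more, with 1692, 322, 329 and 673 cells. The median depth was 5303, 5522, 6000 and 9098 UMIs, higher with the class. Between the highest class and 0, 0 of the 9 genes were at least 1.5-fold higher or lower, against 3.77% and 8.06% of 7001 genes. The median log2 ratio was 0.15 for the 9 genes and -0.090 for all genes.

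Maf was at 364, 335, 291 and 254 CPM from class 0 to the highest class, lower at each step. In lane 2 alone it was at 290, 292, 208 and 169 CPM, so the first step was flat. The log2 ratio of the highest class to 0 was -0.52 (-0.61 to -0.44), and -0.48 and -0.78 in lane 1 and lane 2. Irf8 was at 432, 393, 359 and 331 CPM and lower at each step in both lanes, with a log2 ratio of -0.38 (-0.46 to -0.31).

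Klf4 was at 80.9, 89.1, 99.5 and 120 CPM, higher at each step in the 2 lanes together but not within each lane. Its log2 ratio was 0.56 (0.42 to 0.71), and 0.49 and 0.75 by lane. Cebpb was at 432, 443, 452 and 481 CPM with a log2 ratio of 0.16, and Zeb2 had 0.24. Spi1 had 0.030 and was at 379, 397, 398 and 387 CPM, close to level. Runx3 and Rbpj were highest in the class of 2 to 3 UMIs, at 130 and 221 CPM, and Irf4 was between 10.6 and 18.0 CPM.

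In WT cells of 2000 to 4000 UMIs, with only 57 cells in the highest class, the log2 ratio was -0.35 for Maf and -0.33 for Irf8 and -0.11 for Klf4. The Klf4 value rests on 19 UMIs in the highest class, and its interval of -0.87 to 0.58 holds both 0 and the value over all depths. Monocyte markers summed to 152 CPM in class 0 and 598 CPM in the highest class, and dendritic cell markers to 82.2 and 108 CPM. Most of the monocyte sums was Plac8 (96.2 and 447 CPM) and Ms4a4c (48.0 and 128 CPM), and Vcan was lower in the highest class. Of the dendritic cell markers, Cd209a (24.1 and 59.6 CPM), Flt3 and Clec9a were higher there. Dpp4 (37.9 and 31.3 CPM), Ccr7, Xcr1, Kit, Itgae and Zbtb46 were lower. Summed macrophage markers were at 17519 and 12668 CPM, plasma cell markers at 2602 and 123 CPM and epithelial markers at 199 and 38.4 CPM. The part of these differences in cell content in the Maf and Irf8 order was not tested beyond leaving out cells with a dendritic cell marker UMI, which gave -0.53 and -0.25. KO levels of Maf and Irf8 lay above that of any WT class.

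Of the related genes, the class with most Ccr2 UMIs had at least 1.5-fold more Klf10 (0.60) among 6 KLF genes, and less Notch1 (-0.77) as the lowest of 2 lower among 9 Notch pathway genes. Among 14 other macrophage factors 2 were higher and 3 lower, from Nr4a1 at 0.79 to Tfec at -1.32. Over all 7001 genes 3.77% were higher and 8.06% lower. Il10 was at -1.12, the lowest of the 8 genes listed as targets or as abundant in macrophages.

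**Figure D4:**
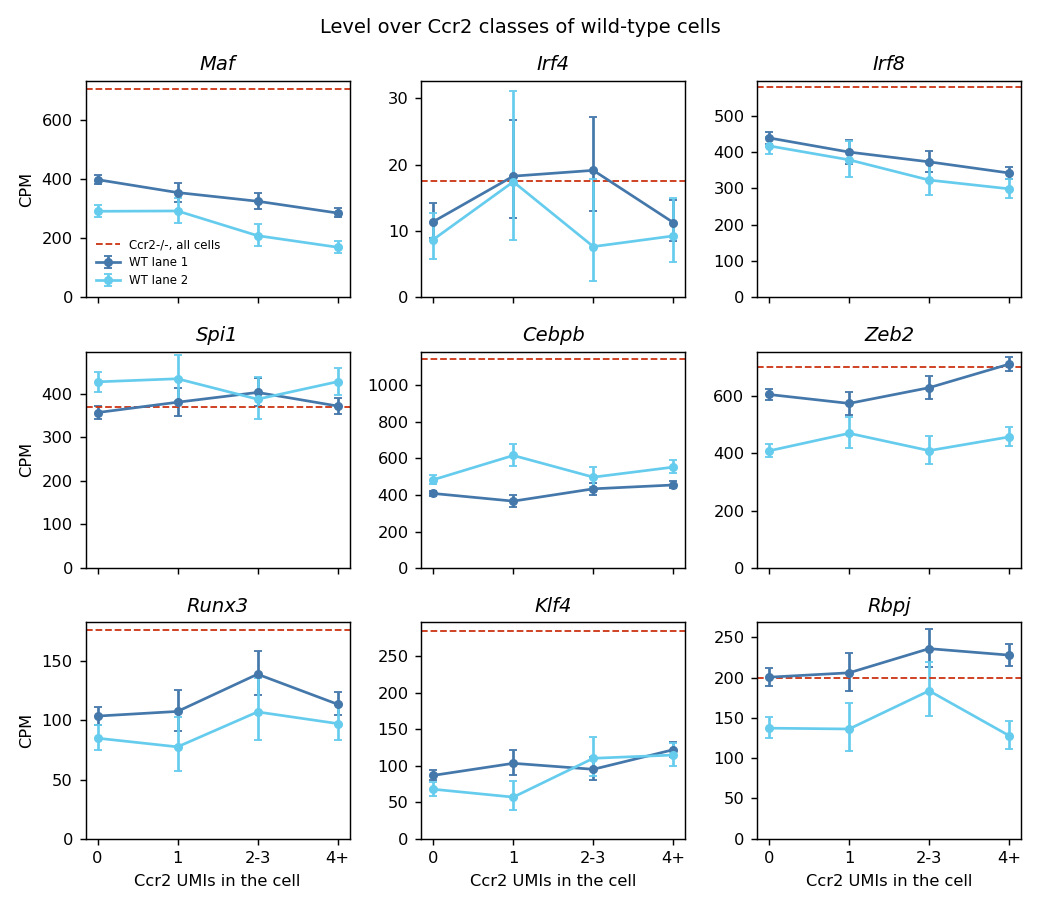
CPM of each of the 9 genes (vertical axes, from 0) by Ccr2 UMIs of WT cells (horizontal axis), a line for each lane with Poisson intervals; the dashed red line is the KO level. The lines of Maf and Irf8 slope down in both lanes, and the KO levels of 702 and 580 CPM lie above all their points.

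Cells with a Timd4 UMI (445 in WT, 815 in KO) were compared with those without (2571 and 1797) inside each library. In WT, 0 of the 9 genes were at least 1.5-fold different, against 3.29% of 7091 genes higher and 1.83% lower. In KO, 0 were higher and 1 lower, Irf4, against 1.34% and 3.79% of 7529 genes. The median log2 ratio of the 9 genes was -0.032 in WT and 0.045 in KO.

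Maf was at 387 CPM in WT cells with a Timd4 UMI and 306 CPM in those without, a log2 ratio of 0.34 with 0.32 and 0.35 by lane. In KO it was at 673 and 718 CPM, a ratio of -0.093 (-0.18 to -0.0096). Cebpb was at 386 and 462 CPM in WT, a ratio of -0.26, and at 1200.0 and 1111 CPM in KO, a ratio of 0.11 (0.05 to 0.18). Both genes thus had opposite directions in the 2 libraries, with no test of that difference. The cells compared differed in other ways too. WT cells with a Timd4 UMI had Ccr2 at 102 CPM and those without at 372 CPM, with plasma cell markers at 231 and 1917 CPM. Median depth was 3014 UMIs with and 2189 UMIs without a Timd4 UMI in KO, and 6154 and 6119 in WT. The part of these differences in the Maf and Cebpb directions was not tested.

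Klf4 was at 68.9 CPM in WT cells with a Timd4 UMI and 101 CPM in those without, with ratios of -0.56 and -0.51 by lane. In KO the ratio was -0.033. Irf8 was higher with Timd4 in both libraries, at 439 against 380 CPM in WT and 641 against 546 CPM in KO. When Timd4 detection was also read after thinning, however, Irf8 in WT had a ratio of -0.26, and Maf had 0.058 in WT and -0.0049 in KO. Irf4 in KO was at 11.5 CPM with and 21.1 CPM without a Timd4 UMI, on 30 and 98 UMIs. KO cells without a Timd4 UMI also had more RNA of other cells, with plasma cell markers at 2642 against 312 CPM and fibroblast markers at 343 against 30.2 CPM. Plasma cells express Irf4, and their part in its ratio was not tested.

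Spi1 and Zeb2 had ratios of 0.021 and 0.0098 in WT and 0.14 and 0.045 in KO. Runx3 was at -0.16 in WT, with -0.26 and 0.11 by lane, and at 0.12 in KO. Rbpj was at -0.032 and -0.23. Among related genes, Rxra, the partner of nuclear receptors, was at 1.08 in WT, and in KO Tfec was at 0.75, Ets1 at -1.75 and Id3 at -1.77. Ets1 is best known in lymphocytes.

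**Figure D5:**
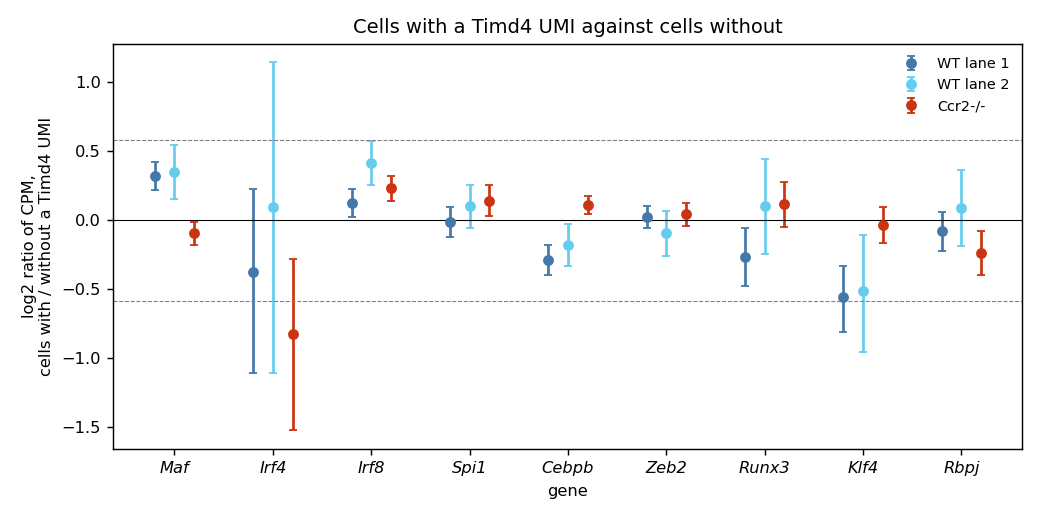
Log2 ratio of CPM of cells with a Timd4 UMI to cells without (vertical axis) for each of the 9 genes, in WT lane 1, WT lane 2 and KO, with counting intervals; dashed lines mark 1.5-fold. Maf and Cebpb have both lanes on 1 side of 0 and KO on the other, and Klf4 is at -0.56 and -0.51 in the lanes with KO close to 0.

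The share of cells with a UMI was compared after thinning to 1000 UMIs, in 3015 WT and 2416 KO cells (1 and 196 shallower cells left out). Cebpb was found in 32.3% of WT and 60.8% of KO cells, Maf in 28.1% and 45.9%, and Irf8 in 31.5% and 42.5%. Klf4 was found in 9.22% and 20.1%, Runx3 in 9.29% and 15.02%, and Zeb2 in 42.3% and 49.6%. Exact Clopper-Pearson intervals were apart for these 6 genes. Spi1 at 29.7% and 29.5%, Rbpj at 19.6% and 18.0% and Irf4 at 1.46% and 1.95% had overlapping intervals. Without thinning WT, the deeper library, had the larger share for 7 of 9 genes with intervals apart, for example 73.6% against 69.0% for Maf, while Klf4 was larger in KO at 35.0% against 29.6%.

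Cells with at least 3 T cell, innate lymphoid, B cell or plasma cell markers of 1 list and at most 3 macrophage markers, 12 in WT and 24 in KO with a median of 3487.5 and 2213.5 UMIs, gave a background for these shares. Klf4 and Rbpj were found in 0 of 12 and 0 of 24 of them, which allows shares of up to 25% and 12.5% if 3 counts of the total are taken as the limit. Spi1 was found in 8.33% and 4.17%, and Cebpb in 16.7% and 12.5%. In KO the upper limits of 21.1% and 32.4% lay below the shares of 29.5% and 60.8% in all cells, while in WT the intervals, 0.21% to 38.5% and 2.09% to 48.4%, held the shares in all cells. Runx3 was found in 16.7% and 12.5% of them (in KO with an interval of 2.66% to 32.4% that holds 15.02%) and Irf4 in 16.7% of those in KO, so the Runx3 share in WT and the Irf4 share in KO were no larger than in cells of another type; lymphocytes and plasma cells are known to express these genes. Maf was found in 33.3% of those in KO, with an interval of 15.6% to 55.3% that holds its share of 45.9% in all KO cells.

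Last, each gene was compared with other genes over 12 groups of cells (the WT lanes split by Timd4 and Ccr2 UMIs, and KO split by Timd4), among about 2521 genes with a mean of at least 50 CPM. These groups share library, lane and depth, so the Pearson r values are descriptions. Maf was most like the mannose receptor gene Mrc1 (r = 0.989), Arhgef2 (0.983) and the endocytic adaptor gene Dab2 (0.981). Cebpb was most like Junb (0.978), Ier5 (0.971) and Gm6377 (0.963), of which Junb and Ier5 are immediate-early genes. Klf4 was most like Tagap (0.952), Hivep2 (0.948) and Pim1 (0.946), and Irf8 like Cebpg (0.973), P2rx4 (0.969) and Ccnd2 (0.964).

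Runx3 was most like Sla (0.955), Ywhaz (0.9496) and Otulin (0.933). Zeb2 was most like Lrrc58 (0.947), Sf3b1 (0.945) and Ankrd11 (0.944), and Rbpj like Zfp638 (0.938), Pafah1b1 (0.932) and Eif3a (0.926). Spi1 was most like Evl (0.911), Arhgdia (0.870) and Syngr2 (0.864), and Irf4 like Bach1 (0.794), Ncoa3 (0.775) and Hnrnpab (0.761). Among the 9 genes, Maf and Irf8 went together (0.925), as did Klf4 and Runx3 (0.892) and Zeb2 and Rbpj (0.787), while Spi1 ran against Rbpj (-0.792) and Zeb2 (-0.715). Maf, Klf4 and Irf4 were highest in KO cells without a Timd4 UMI, and Irf8, Cebpb, Zeb2 and Runx3 in KO cells with one. Spi1 was highest in WT cells with a Timd4 UMI in lane 2, at 450 CPM, and Rbpj in WT lane 1 cells with 2 to 3 Ccr2 UMIs, at 234 CPM.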

How the data were processed

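Cells of 2 libraries, made with the 10x Genomics 3′ v2 kit per the labels, were analysed from the UMI counts the authors deposited as gene by cell matrices. Per the submitters' processing notes Cell Ranger 3.0.1 and mm10 were used; the matrices are filtered to cells, and the annotation is not given in the sources used here. Whether the WT lanes were equalised in depth when joined is not given in the sources used here. Kept were cells with at least 200 genes and at most 10% mitochondrial UMIs (3016 of 3054 WT, 2612 of 2774 KO). UMIs were summed per group (20678108 in WT, 7265386 in KO) and divided by the total to CPM. Intervals are exact Poisson, conditional binomial for ratios and Clopper-Pearson for shares, all at 95% and for counting error only. No count model was fitted, since each genotype is 1 pooled library. Ratios are on the log2(CPM + 1) scale, and a gene counts as higher or lower from 1.5-fold on, among genes with a mean of at least 10 CPM. The intervals of ratios were computed without the pseudocount, so each belongs to a slightly different estimate than the value beside it, most so at low levels such as Irf4.

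Doublets were left in. Scrublet in scanpy 1.11.5 marked 2, 6 and 1 cells of WT lane 1, WT lane 2 and KO by its own threshold, against 36, 7 and 55 expected from the cell numbers, so it did not work in lane 1 and KO. Leaving out the 36, 7 and 55 highest scores was an alternative. Other alternatives changed normalization, pseudocount, cell and gene filters, thinning, lane, depth and cell content. Python 3.11.15, numpy 2.4.6, scipy 1.17.1 and pandas 2.3.3 were used, and the ratio and interval code was tested on simulated data. Of 27998 gene IDs, 27645 were found in GENCODE M21 (GRCm38), the source of coordinates. Zeb2os and Tmem189 lie on the opposite strand of Zeb2 and Cebpb with 1520 and 844 UMIs of their own in WT, and reads of the 2 strands may not be told apart since strand use in counting is not given. The genes Cebpd, Trbc2 and Iglc2 of the lists were not analysed here. The 9 genes are always named, with the 3 most similar genes each and the highest and lowest of each related list; Csf1r, C1qa, C1qc, Ctss and the genes shown in promoters were added after their values were seen. The 9 genes and the lists were chosen with earlier results of these data known. Some genes of the lists are not reported here.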

Additional observations from a re-analysis of the deposited data

Results flagged for a closer look

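Maf and Cebpb had opposite directions with Timd4 detection in the 2 libraries. The log2 ratio of cells with a Timd4 UMI to cells without was 0.34 in WT and -0.093 in KO for Maf, and -0.26 in WT and 0.11 in KO for Cebpb. Both WT lanes had the WT direction. With Timd4 read after thinning to 1000 UMIs, Maf was at 0.058 in WT and -0.0049 in KO, close to 0 in both, and Cebpb at -0.25 and 0.23. The difference between libraries was not tested, since each genotype is 1 library. Cells with and without a Timd4 UMI also differed in Ccr2 level in WT (102 and 372 CPM) and in median depth in KO (3014 and 2189 UMIs). The part of these differences was not tested.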

How the results depend on the processing

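No paired analysis was possible because each genotype is 1 library. For KO against WT, the 9 genes' median log2 ratio was 0.39 with median-of-ratios size factors. Against WT lane 2 alone 7 genes were at least 1.5-fold higher, Irf4, Irf8 and Zeb2 being the added ones. The share over all 7324 genes was higher there too, at 33.8% against 23.6% for both lanes together. Among cells at or below the pooled median of immediate-early CPM, 1 gene was higher (Runx3) and 1 lower (Rbpj), with a median of 0.21. The 4 immediate-early bands were added after the data were seen. The first band had 0 higher, 3 lower (Irf4, Irf8 and Spi1) and a median of -0.32. Irf4 had no UMI in the 90 KO cells of that band, and the interval of its ratio reached 0.29. The second band had 3 higher (Irf4, Runx3 and Maf), 1 lower (Rbpj) and a median of 0.24. The third had 1 higher (Maf) and 0.084, and the fourth 1 higher (Maf), 1 lower (Klf4) and 0.12. No share over all genes is given for the bands or for the cells at or below the pooled median. These counts are therefore not read as particular to the 9 genes. Of the 4 genes past 1.5-fold over all cells, directions were reversed for Klf4 in the first band (-0.17) and, in the fourth, for Klf4 (-1.04), Cebpb (-0.15) and Runx3 (-0.0027). Of the others, Irf8 (-0.73) and Irf4 had the opposite sign in the first band, Irf4 in the third (-0.27), and Zeb2 (-0.51, -0.39 and -0.0070) and Rbpj (-0.32, -0.87 and -0.20) in the first 3. The cause was not tested; the first band holds 90 KO cells and the fourth 37 WT cells.

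For the Ccr2 classes, 1 gene was higher with median-of-ratios size factors, with at least 500 genes and at most 5% mitochondrial UMIs, in lane 2 (with 1 lower, Maf), after thinning to 3000 UMIs and without cells with a dendritic cell marker UMI. It was Irf4 (0.63) after thinning and Klf4 in the other settings. In lane 2, 361 of all 6750 genes were at least 1.5-fold higher and 946 lower. The median was -0.17 in cells of 2000 to 4000 UMIs. For Timd4 in WT, 1 gene was lower with median-of-ratios size factors, the stricter cell filter, the highest Scrublet scores left out or cells with a Ccr2 UMI left out, 2 were lower at 2000 to 4000 UMIs, and the median was 0.10 in lane 2. For Timd4 in KO, 0 were lower with a pseudocount of 10 CPM or after thinning to 1000 UMIs. Among KO cells of low immediate-early level 4 were higher (Irf8, Spi1, Cebpb and Runx3) with a median of 0.54. Apart from lane 2 of the Ccr2 classes, no share over all genes is given for the Ccr2 and Timd4 alternatives here. These counts are therefore not read as particular to the 9 genes. In the 2 lower immediate-early bands 20% and 11.7% of KO cells carried markers of another cell type, and their part was not tested. For shares, thinning to 2000 UMIs gave 1 gene lower in KO, and no thinning 2 higher and 7 lower. Of the 60 genotype counts and medians over the 9 genes under alternatives, 45 stayed within 1.5 times or the spread of counting. Of 182 other genotype values (2 over all genes, the rest of single genes) only 83 did, 95 moved by more and 4 were classed as reversed. That class leaves out other changes of sign. Over 20 alternatives per gene, Rbpj kept its sign in 10, Spi1 in 15, Zeb2 in 16 and Irf4 in 17. Klf4 kept it in 18, Irf8, Cebpb and Runx3 in 19 each, and Maf in 20. Depth limits Irf4 most, with 128 KO UMIs.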
